A study of Mus musculus with 10 samples.

Results

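The genes described here are 9 members of the oxidative stress response that is centred on the transcription factor NRF2, followed through cholesterol loading of primary mouse aortic smooth muscle cells and a subsequent treatment with high-density lipoprotein (HDL). They were chosen by name for their role, with earlier results of these data known. The 9 are Nfe2l2 (the gene of NRF2), Hmox1, Nqo1, Gclm, Gclc, Srxn1, Txnrd1, Slc7a11 and Sod2. All 9 were measured, among 16860 genes in all. Cells of 3 groups were profiled, with 2 Affymetrix Mouse Genome 430 2.0 arrays each. The HDL group received a complex of cholesterol and methyl-β-cyclodextrin (10 µg/mL, molar ratio 1:6) for 72 h and then human HDL (100 µg/mL) for 72 h more. The cholesterol group had the same loading and was harvested after its 72 h. The baseline group was harvested without stimulus. All cells came from thoracic aortas of C57BL/6 mice 8 weeks old, were at passage 5 or below and were cultured with 10% fetal bovine serum. The labels do not say whether the 2 arrays of a group stand for separate isolates, so p-values measure only the spread between these arrays, which may be technical. No group given the carrier alone, or cultured equally long without HDL, was analysed here, so that effects of the carrier and of culture time cannot be told apart from those of cholesterol and HDL. In RNA from whole cultures, fewer cells of a type and less RNA per cell cannot be told apart either.

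NRF2 is a basic leucine zipper factor that is made continuously and degraded under the control of KEAP1, a protein with reactive cysteines. Oxidants and electrophiles modify KEAP1, and NRF2 then accumulates, pairs with small MAF proteins and binds antioxidant response elements. Its best known targets make glutathione, regenerate thioredoxin and peroxiredoxins, reduce quinones and break down haem. In the vessel wall these genes are studied as a defence of smooth muscle cells and macrophages against oxidised lipid. NRF2 is controlled largely through its protein, which arrays do not measure.

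Promoter sequences were examined because the antioxidant response element is the sequence through which NRF2 acts. The set of RefSeq promoter sequences used here (GRCm38.p6) held windows for 7 of the 9 genes, with no entry for Hmox1 and Gclc. The 250 bases before each start were searched on both strands. The element core was searched in the forms TGACNNNGC and TGAGNNNGC, the AP-1 site as TGANTCA, which can overlap the core, and the amino acid response element, bound by ATF4 with C/EBP partners, as TGATGCAA. This last motif was added with the Slc7a11 window in view. A core was found for Nfe2l2, Gclm, Srxn1, Slc7a11 and 1 of 3 Txnrd1 starts, and none lay in the windows of Nqo1 and Sod2. Of 32851 mouse promoter windows of this length, 23.0% held a core of either form, 6.75% held an AP-1 site and 0.792% held TGATGCAA. The windows below, written 5′ to 3′ on the strand of the gene with each motif match in capitals, belong to Srxn1 (chr2:152105274-152105523 on the plus strand), Slc7a11 (chr3:50443614-50443863 on the minus strand), Gclm (chr3:122245307-122245556 on the plus strand) and Nfe2l2 (chr2:75704664-75704913 on the minus strand). They are shown, with the changes known, as the windows with a core whose genes rose with cholesterol.
Srxn1: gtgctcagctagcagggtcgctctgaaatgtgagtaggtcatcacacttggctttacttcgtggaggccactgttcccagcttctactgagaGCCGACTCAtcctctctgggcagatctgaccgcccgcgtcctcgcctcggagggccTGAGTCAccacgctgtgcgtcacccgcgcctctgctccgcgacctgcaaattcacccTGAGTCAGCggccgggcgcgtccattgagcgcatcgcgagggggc
Slc7a11: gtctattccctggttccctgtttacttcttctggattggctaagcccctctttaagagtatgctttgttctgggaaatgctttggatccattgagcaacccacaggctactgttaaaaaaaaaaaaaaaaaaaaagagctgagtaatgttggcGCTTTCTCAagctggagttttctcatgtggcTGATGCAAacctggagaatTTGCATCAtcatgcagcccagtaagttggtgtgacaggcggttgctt
Gclm: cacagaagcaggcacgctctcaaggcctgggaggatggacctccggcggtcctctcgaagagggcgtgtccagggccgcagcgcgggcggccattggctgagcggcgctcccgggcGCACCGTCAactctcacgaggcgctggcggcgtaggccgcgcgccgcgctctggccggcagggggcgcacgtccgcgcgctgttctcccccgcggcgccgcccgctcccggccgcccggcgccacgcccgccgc
Nfe2l2: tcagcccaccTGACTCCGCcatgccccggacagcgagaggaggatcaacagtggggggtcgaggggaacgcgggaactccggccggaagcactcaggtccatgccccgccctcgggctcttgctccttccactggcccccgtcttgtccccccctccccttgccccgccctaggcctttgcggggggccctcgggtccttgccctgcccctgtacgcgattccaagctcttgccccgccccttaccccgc

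The Srxn1 window held 2 cores, and 3.18% of all windows held at least 2. The one nearer to the start, TGAGTCAGC at 45 to 37 bases before it, contains an AP-1 site, and a separate AP-1 site lay at 102 to 96 bases. In the Slc7a11 window the core TGAGAAAGC lay on the opposite strand at 97 to 89 bases, followed by TGATGCAA in both orientations at 66 to 59 and 47 to 40 bases. Of the 32851 windows, 2 held TGATGCAA more than once, the Slc7a11 window among them. Because the motif was added with this window in view, that count is a description and tests nothing. The single cores were TGACGGTGC in Gclm, on the opposite strand at 134 to 126 bases, and TGACTCCGC in Nfe2l2 at 240 to 232 bases. A match describes letters in these windows and does not show binding.

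The first comparison set cholesterol-loaded against baseline cells and asked how these genes respond to loading. Of the 9 genes 7 rose and none fell: Sod2, Slc7a11, Gclm, Srxn1, Nqo1, Nfe2l2 and Gclc, by 1.52-fold to 3.31-fold. Across all genes 10.4% were called higher and 23.5% were called in either direction at an adjusted p under 0.05 (limma, Benjamini-Hochberg over all 16860 genes). The median log2 change was 0.82 over the 9 genes and -0.03 over all genes. In all 9 both cholesterol arrays lay above both baseline arrays, against 28.1% of all genes. The one-way test per gene named in the design text, which does not share the spread across genes, called 0 of the 9 and 3 of all 16860 genes. At an unadjusted p under 0.05 it had 4 of the 9 and 28.1% of all genes. The baseline and cholesterol arrays were also deposited from a normalization run of their own (analysis I). On those values limma called 8 of the 9, with Hmox1 added (adjusted p = 0.0166), and 29.2% of all genes. The plot of the genes on each array shows their values on the log2 scale of Robust Multichip Average (RMA), on which a difference of 1 is a doubling. Levels are not compared between genes, whose probes differ.

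**Figure D1:**
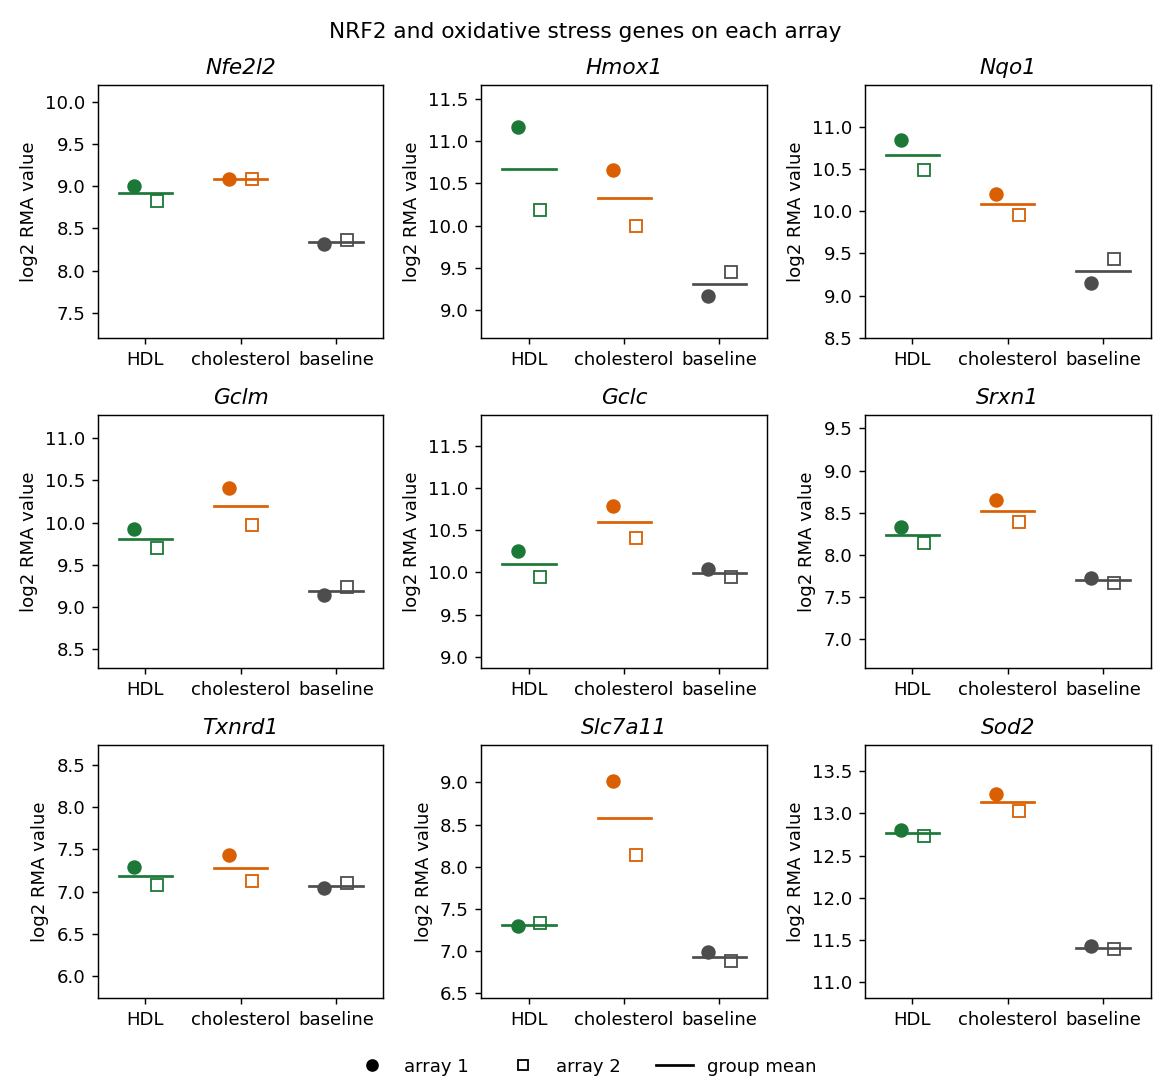
Log2 RMA values (vertical axes, each spanning the same number of log2 units) of the 9 genes on the 2 arrays of the HDL, cholesterol and baseline groups, with group means as lines. Both cholesterol arrays lie above both baseline arrays in every panel, and both HDL arrays lie below both cholesterol arrays for Nfe2l2, Gclm, Gclc, Srxn1, Slc7a11 and Sod2 but above them for Nqo1.

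Nfe2l2 (ENSMUSG00000015839_at), the regulator itself, had log2 values of 9.01 and 8.82 on the HDL arrays, 9.08 and 9.09 on the cholesterol arrays and 8.31 and 8.37 on the baseline arrays. The cholesterol arrays were thus nearly identical and clear of baseline, and the HDL arrays lay between, nearer to cholesterol. Its rise with cholesterol was 0.74 ± 0.10 on the log2 scale (SE, n = 2 per group), or 1.68-fold (adjusted p = 0.0020).

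Slc7a11 (ENSMUSG00000027737_at) encodes the transport chain of the cystine/glutamate antiporter, which brings in the cystine from which cells draw cysteine for glutathione. It had log2 values of 7.30 and 7.33 on the HDL arrays, 9.01 and 8.14 on the cholesterol arrays and 6.99 and 6.88 on the baseline arrays. The groups did not overlap, but the cholesterol arrays differed from each other by 0.88. Slc7a11 rose with cholesterol by 1.64 ± 0.25 (SE), or 3.12-fold (adjusted p = 0.0039), and single pairs of a cholesterol and a baseline array differed by 1.14 to 2.14.

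Glutamate-cysteine ligase catalyses the rate-limiting step of glutathione synthesis, with Gclc (ENSMUSG00000032350_at) as its catalytic and Gclm (ENSMUSG00000028124_at) as its modifier subunit. Gclm had log2 values of 9.92 and 9.70 on the HDL arrays, 10.41 and 9.97 on the cholesterol arrays and 9.14 and 9.23 on the baseline arrays. Its HDL arrays lay between the other groups without touching either. Gclc had 10.26 and 9.95 on the HDL arrays, 10.79 and 10.41 on the cholesterol arrays and 10.04 and 9.95 on the baseline arrays, so that its HDL arrays overlapped baseline. With cholesterol Gclm rose by 1.01 ± 0.16 (SE), or 2.01-fold (adjusted p = 0.0042). Gclc rose by 0.61 ± 0.16 (SE), or 1.52-fold (adjusted p = 0.030). The Gclc call was lost without baseline array 1, without baseline array 2 and without cholesterol array 1 (adjusted p = 0.119, 0.163 and 0.175; range over 14 alternatives 0.010 to 0.263).

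Srxn1 and Txnrd1 serve the thiol systems. Srxn1 (ENSMUSG00000032802_at) encodes sulfiredoxin, which restores overoxidised peroxiredoxins, and Txnrd1 (ENSMUSG00000020250_at) encodes the cytosolic thioredoxin reductase, a selenoprotein that reduces thioredoxin with NADPH. Srxn1 had log2 values of 8.33 and 8.14 on the HDL arrays, 8.65 and 8.39 on the cholesterol arrays and 7.73 and 7.67 on the baseline arrays. All 3 groups were separate, with HDL between the others. Srxn1 rose with cholesterol by 0.82 ± 0.12 (SE), or 1.76-fold (adjusted p = 0.0033). Txnrd1 had 7.29 and 7.08 on the HDL arrays, 7.44 and 7.13 on the cholesterol arrays and 7.04 and 7.10 on the baseline arrays, with the lower cholesterol array only 0.03 above the nearest baseline array. Its change of 0.22 ± 0.13 (SE) did not pass (adjusted p = 0.306), with a 95% interval of -0.09 to 0.52.

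Hmox1 (ENSMUSG00000005413_at) and Nqo1 (ENSMUSG00000003849_at) encode enzymes often used as readouts of NRF2: haem oxygenase 1, which splits haem into biliverdin, iron and carbon monoxide, and a quinone reductase. Hmox1 had log2 values of 11.16 and 10.18 on the HDL arrays, 10.66 and 9.99 on the cholesterol arrays and 9.17 and 9.45 on the baseline arrays. All 4 loaded arrays lay above baseline, while the HDL and cholesterol arrays overlapped and differed widely within each group. Its change with cholesterol was 1.01 ± 0.34 (SE), as large as that of Gclm, but did not pass (adjusted p = 0.072, unadjusted p = 0.0192). Fitted without the HDL arrays, whose spread enters the estimate, Hmox1 was called (adjusted p = 0.0107; range over 14 alternatives 0.0107 to 0.349). Nqo1 had 10.84 and 10.49 on the HDL arrays, 10.21 and 9.95 on the cholesterol arrays and 9.15 and 9.43 on the baseline arrays, a stepwise order with no overlap. Nqo1 rose with cholesterol by 0.79 ± 0.16 (SE), or 1.73-fold (adjusted p = 0.0132), a call lost without baseline array 1 (adjusted p = 0.103) and without cholesterol array 1 (adjusted p = 0.0986; range over 14 alternatives 0.0042 to 0.184).

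Sod2 (ENSMUSG00000006818_at) encodes the mitochondrial manganese superoxide dismutase, which turns superoxide into hydrogen peroxide and is known as a target of NF-κB as well as of oxidative stress. It had log2 values of 12.81 and 12.73 on the HDL arrays, 13.23 and 13.03 on the cholesterol arrays and 11.42 and 11.39 on the baseline arrays. Its replicate arrays differed by 0.08 after HDL, 0.20 after cholesterol and 0.03 at baseline, and the 3 groups were separate. Sod2 rose with cholesterol by 1.73 ± 0.10 (SE), or 3.31-fold (adjusted p = 8.31e-05), and 1.90% of all genes changed by more.

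The change with HDL was then examined by setting HDL-treated cells against cholesterol-loaded cells. None of the 9 genes passed the adjusted threshold in limma, where 2.73% of all genes did. At an unadjusted p under 0.05 there were 5, against 18.0% of all genes. Of these 4 were lower after HDL (Slc7a11, Gclc, Sod2 and Gclm; 8.26% of all genes) and Nqo1 was higher (9.73% of all genes). The one-way test per gene called 0 of the 9 and 0 of all genes, and at an unadjusted p under 0.05 it had 0 of the 9 and 9.35% of all genes. Both HDL arrays lay below both cholesterol arrays in 6 of the 9 genes (22.4% of all genes) and above them in Nqo1 alone among the 9 (24.7% of all genes). The median log2 difference was -0.28 over the 9 genes and 0.00 over all genes. These values share the cholesterol arrays with the comparison above.

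Slc7a11 had the largest difference of the 9, -1.26 ± 0.25 on the log2 scale (SE), a level 0.418 times that of cholesterol cells, and 0.890% of all genes differed by more. Its adjusted p of 0.0527 lay just over the threshold, and over 12 alternatives it ranged from 0.0070 to 0.570, with 5 under 0.05. Without cholesterol array 1, the higher of the pair, the difference was -0.82 (adjusted p = 0.0739), and without cholesterol array 2 it was -1.70 (adjusted p = 0.0070). The other glutathione gene differences were -0.49 ± 0.16 for Gclc (SE; adjusted p = 0.160) and -0.38 ± 0.16 for Gclm (SE; adjusted p = 0.264). Sod2 differed by -0.36 ± 0.10 (SE; adjusted p = 0.123), Srxn1 by -0.28 ± 0.12 (SE; adjusted p = 0.280) and Nfe2l2 by -0.17 ± 0.10 (SE; adjusted p = 0.421).

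Nqo1 went the other way, with a difference of 0.58 ± 0.16 (SE; adjusted p = 0.123). It was called only without HDL array 2 (0.76, adjusted p = 0.0298; range over 12 alternatives 0.0298 to 0.587). Hmox1 differed by 0.35 ± 0.34 (SE; adjusted p = 0.668), with a 95% interval of -0.45 to 1.14, and without HDL array 1 the difference was -0.14. Txnrd1 differed by -0.10 ± 0.13 (SE; adjusted p = 0.769), with an interval of -0.41 to 0.21. A p over the threshold does not show that these levels were alike.

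**Figure D2:**
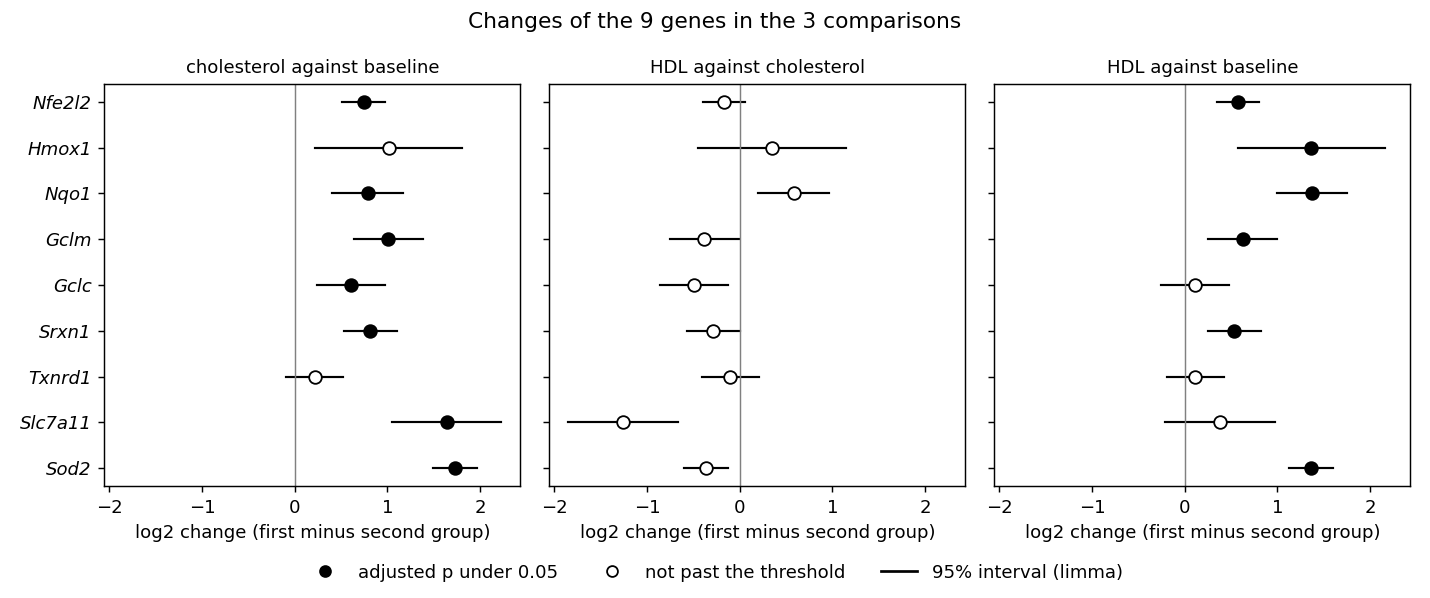
Log2 changes of the 9 genes (horizontal axes, first minus second named group) with 95% intervals from limma in the 3 comparisons, filled where the adjusted p is under 0.05. Cholesterol against baseline shows 7 filled points, all above 0, HDL against cholesterol none, and HDL against baseline 6, all above 0, with the widest interval for Hmox1.

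HDL-treated cells were finally set against baseline cells to ask how levels stood after the sequence of loading and HDL. These values share the baseline arrays with the first comparison and the HDL arrays with the second, so they are not a separate result. Of the 9 genes 6 were higher and none was called lower, while 9.13% of all genes were called higher and 20.0% in either direction. Both HDL arrays lay above both baseline arrays in 7 of the 9, against 25.8% of all genes. Nqo1 was higher by 1.37 ± 0.16 on the log2 scale (SE; 2.59-fold, adjusted p = 0.0016). Hmox1 was higher by 1.36 ± 0.34 (SE; 2.57-fold, adjusted p = 0.030) and Sod2 by 1.36 ± 0.10 (SE; 2.57-fold, adjusted p = 0.000186). The error of Hmox1 was the widest, and its value rested on HDL arrays that differed: it was 0.87 without HDL array 1 (adjusted p = 0.065; range over 12 alternatives 0.0024 to 0.344) and 1.85 without HDL array 2. In the same fits Nqo1 was 1.19 and 1.55, and Sod2 was 1.32 and 1.40. Gclm was higher by 0.63 ± 0.16 (SE; adjusted p = 0.032), Nfe2l2 by 0.57 ± 0.10 (SE; adjusted p = 0.0072) and Srxn1 by 0.53 ± 0.12 (SE; adjusted p = 0.0219).

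The remaining 3 did not pass. Slc7a11 stood 0.38 ± 0.25 above baseline (SE; adjusted p = 0.356), with both HDL arrays still above both baseline arrays. Gclc stood 0.11 ± 0.16 above (SE; adjusted p = 0.694) and Txnrd1 0.11 ± 0.13 above (SE; adjusted p = 0.616), both with overlapping arrays. The 95% intervals reached up to 0.97 for Slc7a11, 0.48 for Gclc and 0.42 for Txnrd1. Of the 9, 2 were called without baseline array 1, 2 without baseline array 2 and 3 without HDL array 1, where 8.52%, 7.49% and 16.0% of all genes were called, and Sod2 and Nqo1 were called in each of these fits. The one-way test per gene called 0 of the 9 and 0 of all genes, with 6 of the 9 and 20.1% of all genes at an unadjusted p under 0.05.

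The genes also differed between replicate arrays in a shared direction. Array 1 minus array 2 was above 0 in 8 of 9 genes after HDL, in 8 of 9 after cholesterol and in 4 of 9 at baseline. Among all genes these shares were 51.8%, 51.7% and 56.6%. The median replicate difference of the 9 was 0.21 after HDL, 0.31 after cholesterol and -0.05 at baseline, while that of all genes was 0.01, 0.01 and 0.02. After cholesterol, Slc7a11 (0.88), Hmox1 (0.67), Gclm (0.44), Gclc (0.38) and Txnrd1 (0.31) lay above the 95th percentile of all genes, which was 0.29. Nfe2l2 had no such gap there, at -0.01. After HDL only Hmox1, at 0.98, lay above that percentile, which was 0.44. What sets the arrays of a group apart was not tested.

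**Figure D3:**
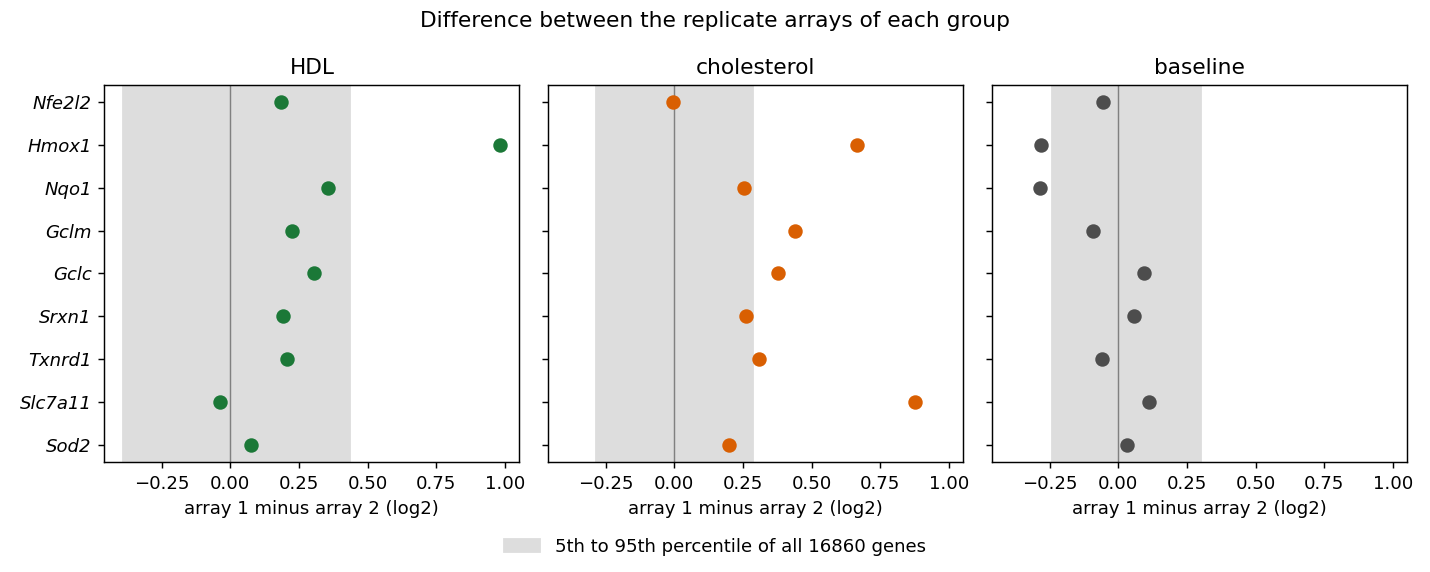
Log2 value on array 1 minus that on array 2 (horizontal axes) for the 9 genes in the HDL, cholesterol and baseline groups, with the 5th to 95th percentile of all 16860 genes shaded. The cholesterol points for Slc7a11, Hmox1, Gclm, Gclc and Txnrd1 lie right of the shaded range, and in the HDL panel Hmox1 alone does.

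Differences between genes within an array leave out whatever the genes share on it. These pairs were chosen after their values had been seen and carry no test. Nqo1 minus Slc7a11 was 3.54 and 3.15 on the HDL arrays, 1.19 and 1.82 on the cholesterol arrays and 2.16 and 2.56 on the baseline arrays. The difference was highest on the HDL arrays and lowest on the cholesterol arrays, an order that the choice of the pair favours. Nqo1 minus Gclm was 0.92 and 0.79 on the HDL arrays, -0.21 and -0.02 on the cholesterol arrays and 0.01 and 0.20 on the baseline arrays, which set HDL apart from the other groups. Srxn1 minus Txnrd1 was 1.04 and 1.06 on the HDL arrays, 1.21 and 1.26 on the cholesterol arrays and 0.69 and 0.57 on the baseline arrays. In the HDL and cholesterol groups the replicate arrays thus lay close together in this difference, and the loaded arrays all lay above baseline. For the subunits of glutamate-cysteine ligase, Gclm minus Gclc was -0.33 and -0.25 on the HDL arrays, -0.37 and -0.44 on the cholesterol arrays and -0.90 and -0.72 on the baseline arrays. The modifier subunit was thus higher relative to the catalytic subunit on all 4 loaded arrays than on the baseline arrays.

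Over the 6 arrays, which share group structure, Gclm and Srxn1 followed each other most closely among the 9 (Pearson r = 0.991), followed by Nfe2l2 and Sod2 (r = 0.985). Hmox1 was most like Nqo1 (r = 0.937). The least alike were Nqo1 and Gclc (r = 0.302) and Nqo1 and Slc7a11 (r = 0.311). Some genes outside the 9 were more alike still. Of the other 16859 genes, 77 (0.457%) were closer to Nfe2l2 than Sod2 was. To Hmox1, 231 (1.37%) were closer than Nqo1 was. The other pairs, Gclm and Srxn1 included, were not set against all genes. The gene closest to Nfe2l2 was ENSMUSG00000021665_at (r = 0.999), with 11.85 and 11.66 on the HDL arrays, 11.95 and 11.95 on the cholesterol arrays and 11.17 and 11.20 on the baseline arrays. The gene closest to Hmox1 was ENSMUSG00000021890_at (r = 0.998), with 8.51 and 8.05 on the HDL arrays, 8.29 and 8.02 on the cholesterol arrays and 7.68 and 7.76 on the baseline arrays. With 6 arrays in 3 groups, such values describe a pattern and nothing more.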

How the data were processed

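The authors deposited log2 RMA values, background-adjusted and normalized by Robust Multichip Average and summarised per Ensembl gene (release 59) with a University of Michigan probe mapping, per the labels' design text. The version of RMA is not given in the sources used here. The method gives arrays one distribution and compresses changes of dim genes. Of 10 deposited columns, 6 come from the run with all 3 groups (analysis II), which was used throughout; the others repeat the baseline and cholesterol arrays in a run of their own (analysis I), used as an alternative. All 16860 genes were fitted together with limma 3.58.1 in R 4.3.3 (group as the only term, two-sided, no filter; code tested on simulated data). Calls needed an adjusted p (Benjamini-Hochberg) under 0.05. Residual degrees of freedom were 3 and the prior added 4.03. An exact permutation test of 2 arrays against 2 cannot go below 0.333 and was not used.

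Array medians lay between 6.93 and 6.98, and replicate arrays correlated across genes by 0.994 to 0.998. The number of arrays limits the precision. Identifiers were paired with the 9 names when the genes were chosen; the deposited table holds no names, and the reference table (GRCm38.p6) matched 0 identifiers. Therefore 9 further lists of pathway genes and 4 of cell type markers (99 and 28 entries, by symbol) were not analysed here, and the labelled cell type was not checked against markers. The 9 genes and the lists were chosen with earlier results of these data known. All 9 are named in each comparison; the genes most like Nfe2l2 and Hmox1 are the first by Pearson correlation, limited to 1 identifier each. Promoter windows came from RefSeq by symbol. Alternatives changed the normalization run, arrays, test, minimum change, filter on dim genes, spread model, scaling and replicate block, or left out an array. Those leaving out an array of the group not compared repeat the fit of the compared groups alone, so the alternatives counted are not all distinct.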

Additional observations from a re-analysis of the deposited data

How the results depend on the processing

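With 2 arrays a group, the calls depend on single arrays and on sharing the spread across genes. Of 342 recomputed changes of the 9 genes (27 changes), 291 kept their direction and their side of the threshold, 36 lost the call (20 under the one-way test per gene, 16 with an array left out), 11 gained one and 4 changed sign, all of them not called: Gclc for HDL against baseline (-0.043) and Hmox1 for HDL against cholesterol (-0.14), both without HDL array 1, and Txnrd1 for HDL against cholesterol without cholesterol array 1 (0.055) and without HDL array 2 (0.0036). With single arrays left out these 3 differences ranged from -0.043 to 0.26, from -0.14 to 0.84 and from -0.26 to 0.055. The 342 values are not all distinct. Leaving out either array of the group not compared repeats the fit of the 4 compared arrays alone. Calls kept or gained in that fit, such as Hmox1 for cholesterol against baseline, are therefore counted more than once. The one-way test, which takes the spread of each gene from 4 arrays alone, called 3 genes and 0 of the 9 when cholesterol was set against baseline (38 and 0 in analysis I, an alternative added after the data had been seen), 0 and 0 for HDL against baseline, and 0 genes for HDL against cholesterol; an unadjusted p under 0.05 was found there for 4746, 3391 and 1577 genes and for 4, 6 and 0 of the 9. A minimum log2 change of 1, stricter by construction, left 949 genes and 3 of the 9 in the cholesterol comparison, 899 and 3 for HDL against baseline, and 170 genes for HDL against cholesterol. For that last comparison the 4 arrays alone called 145 genes. Slc7a11 was the 1 member called there with an intensity trend, with array medians subtracted and with the replicate block. Of all genes 3.12%, 2.76% and 2.33% were called in these fits. Leaving out single arrays assumes that the array left in its group has the spread of the others. Counts then ranged from 1861 to 4915 genes and 5 to 8 members for loading against baseline, 1263 to 4256 and 2 to 6 for HDL against baseline, and 74 to 1656 and 0 to 2 for HDL against cholesterol. Where the cause is not given by fewer arrays or a stricter rule, the cause was not tested.

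The labels number the arrays 1 and 2 in each group without saying that a number marks a shared culture. Replicate deviations across genes correlated by 0.133 between HDL and cholesterol, 0.0053 between HDL and baseline and 0.016 between cholesterol and baseline. These values cannot settle whether a number marks a pair, above all between HDL and cholesterol. The main fit did not take the numbers as pairs. With the replicate block 3788, 392 and 3285 genes were called for cholesterol against baseline, HDL against cholesterol and HDL against baseline, with 8, 1 and 6 of the 9; it added Hmox1 for cholesterol (adjusted p = 0.0455) and Slc7a11 for HDL against cholesterol (adjusted p = 0.0443).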
